A study of Mus musculus with 9 samples.

Results

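RNA was sequenced from unstimulated regulatory T cells, the Foxp3-expressing CD4 T cells that restrain immune responses, sorted from mice of 2 genotypes. The wild-type group (WT) carries Foxp3gfp, a green fluorescent reporter allele of Foxp3. The CNS2KO group carries Foxp3deltaCNS2-gfp, in which the conserved noncoding element CNS2 inside Foxp3 is deleted beside the same reporter, so both groups share the reporter. The labels list 6 WT and 3 CNS2KO samples; the number 407 is given to 1 sample of each genotype and its 2 columns are identical, so 5 WT and 2 CNS2KO libraries were compared. Age, sorting gates, and whether libraries came from separate animals were not given in the labels, and p-values therefore cover only how these libraries vary, which may be technical variation. Described here are 8 genes of 34092 in the count table, chosen by symbol: 4 genes of Polycomb repressive complex 2 (Ezh1, Ezh2, Eed and Suz12), 3 of Polycomb repressive complex 1 (Bmi1, Rnf2 and Ring1) and the histone demethylase gene Kdm6b. All 8 passed the filter on low counts.

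Polycomb proteins keep genes silent through marks on histones. Repressive complex 2 (PRC2) methylates histone H3 at the residue called H3K27, with Ezh2 or Ezh1 as the enzyme and Eed and Suz12 as the core subunits that the enzyme needs. Repressive complex 1 (PRC1) places ubiquitin on histone H2A through the ligases Rnf2 (Ring1b) and Ring1 (Ring1a), each paired with a partner such as Bmi1. Kdm6b (Jmjd3) removes methyl groups from H3K27. In T cells Ezh2 is known to rise on activation and division, Ezh1 is the form associated with non-dividing cells, and Ezh2 is known to work with Foxp3 in activated regulatory T cells.

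The 7 libraries held 16557424 to 21836578 reads on genes. The 7 regulatory T cell markers, Foxp3 among them, summed to 4919 to 5690 CPM, reads scaled to a common library total by TMM, in WT and to 5163 and 5443 CPM in CNS2KO. Summed markers of B cells ranged from 977.8 to 1352 CPM over the libraries, of which most was Ighm. Summed myeloid markers ranged from 65.5 to 97.1 CPM, and CD8 and NK cell markers from 43.7 to 59.2 CPM. Ncr1, an NK cell gene, had no reads. Markers of red blood cells summed to 6.32 to 27.6 CPM in WT, 151 CPM in CNS2KO 399 and 30.7 CPM in CNS2KO 408. All 5 of them had positive fold changes, 3 at an unadjusted p under 0.05 by edgeR and 0 called, and their part in the results was not tested. In such bulk RNA, fewer cells of a type and less RNA per cell cannot be told apart.

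Promoter sequences for 7 of the 8 genes were taken from RefSeq (GRCm38.p6), each running from 250 bases before to 50 bases after the start site. They were searched on both strands for the 4 words TTTGGCGC, TTTGCCGC, TTTCGCGC and TTTCCCGC, forms of the consensus of E2F factors, which drive many genes of DNA replication. The words are in 2.26% of all 32851 promoters of that length. Ezh2 held TTTGGCGC at bases 4 to 11 after the start site and Suz12 held TTTCCCGC at bases -219 to -212, both on the gene's strand, while the other 5 held none of the 4 words. Shown are the Ezh2 and Suz12 stretches with their match in capitals, and the Ezh1 stretch placed like that of Ezh2, because Ezh1 and Ezh2 encode the alternative enzymes of the same complex. The Ezh2 stretch is chr6:47595001-47595130 on the minus strand and the Ezh1 stretch chr11:101226434-101226563 on the minus strand, each with 100 bases before and 30 after the start. The Suz12 stretch is chr11:79992856-79992985 on the plus strand. A match of letters is a description and not a measured site.
Ezh2: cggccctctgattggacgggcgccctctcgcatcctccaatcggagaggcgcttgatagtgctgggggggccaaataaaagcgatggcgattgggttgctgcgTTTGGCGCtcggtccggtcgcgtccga
Ezh1: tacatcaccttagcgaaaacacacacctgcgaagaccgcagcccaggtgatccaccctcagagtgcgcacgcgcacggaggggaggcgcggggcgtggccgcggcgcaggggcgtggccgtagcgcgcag
Suz12: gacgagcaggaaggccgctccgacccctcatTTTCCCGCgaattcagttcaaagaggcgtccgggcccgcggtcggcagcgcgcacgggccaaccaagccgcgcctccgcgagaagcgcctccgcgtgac

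All the genes except Ring1 were read at more than 200 reads in every library. Levels between genes were compared as CPM per kilobase of all annotated exons (GENCODE release M21). Rnf2 had the highest level in WT, 56.5 ± 2.65 CPM per kilobase (SD, n = 5), above every other member in every library. Eed stood at 18.3 ± 4.03, Ezh1 at 17.7 ± 3.96 and Suz12 at 17.5 ± 1.86 CPM per kilobase, and the WT ranges of neighbours in this order overlapped. Bmi1 at 7.11 ± 1.84 and Ezh2 at 6.08 ± 0.647 CPM per kilobase also overlapped in range and lay below Suz12 without overlap. Kdm6b followed at 3.02 ± 0.598 and Ring1 at 0.739 ± 0.421 CPM per kilobase. Of the ubiquitin ligases, the unstimulated cells thus had mostly Rnf2 reads and few Ring1 reads. Of the PRC2 enzymes, Ezh1 lay above Ezh2 without overlap of their WT ranges. The length of the principal transcript is 2787 bases for Ezh2 against 6678 bases of all exons. With it, Ezh2 stood at 14.6 ± 1.55 and Bmi1 at 7.87 ± 2.03 CPM per kilobase, so their order turned. Ezh1 at 31.4 ± 7.03 then lay above Suz12 at 19.8 ± 2.10 CPM per kilobase without overlap of their WT ranges. Rnf2 shares its locus with Trmt1l on the opposite strand and Kdm6b with the antisense transcript Kdm6bos. Ezh2, Eed and Suz12 also overlap other annotated genes. Gm45120 lies on the same strand as Eed, and Gm36527 on the same strand as Rnf2. The sources used here do not say whether counting used strand, so reads from overlapping transcripts cannot be told apart.

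The genotype comparison asked whether Polycomb transcripts differed in unstimulated cells without CNS2. By edgeR's quasi-likelihood test with Benjamini-Hochberg adjustment over 14424 genes, 0 of the 8 members were called at a false discovery rate of 0.05, and the background was 0% of all genes tested. At an unadjusted p under 0.05 the members numbered 0, against 2.5% of all genes (1.54% higher and 0.964% lower in CNS2KO), and DESeq2, which also called 0 genes, had 1 member there, Ring1, against 3.44% of all genes by that test. Of the 8 fold changes 5 were positive and 3 negative, with a median log2 fold change of 0.22, beside -0.03 over all genes tested. Without CNS2KO 408 the median of the members was -0.08, so its sign rested on that library. The adjusted p of every member was 0.9999 by edgeR.

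**Figure D1:**
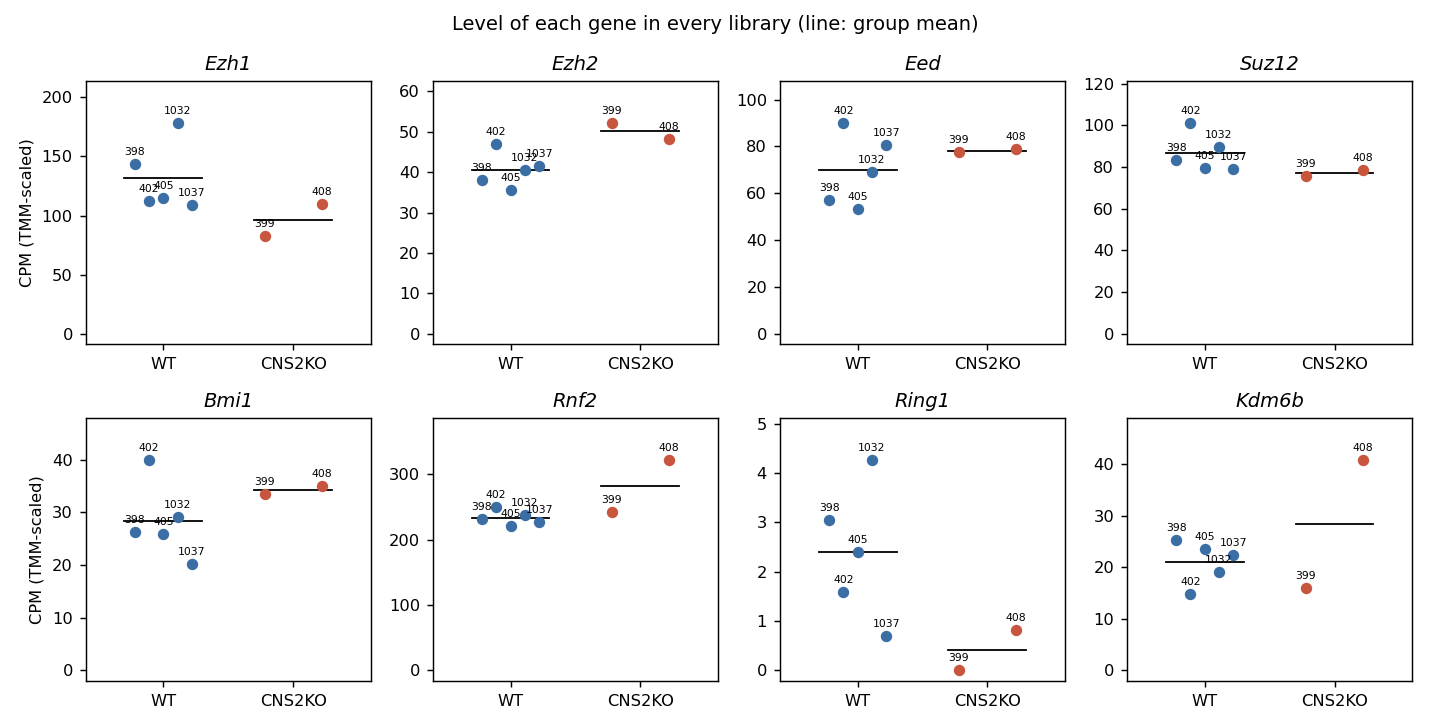
Level of each of the 8 genes in the 5 WT (blue) and 2 CNS2KO (red) libraries, in TMM-scaled CPM on linear axes that include 0, with library numbers beside the points and a line at each group mean. Both CNS2KO points lie above all WT points for Ezh2 and just below them for Suz12, while 1 CNS2KO library stands apart for Rnf2 and Kdm6b.

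Ezh2, the PRC2 enzyme of dividing cells, stood in WT at 38.0 CPM in library 398, 47.1 in 402, 35.6 in 405, 40.7 in 1032 and 41.6 in 1037. In CNS2KO it stood at 52.1 CPM in 399 and 48.1 in 408. Both CNS2KO libraries were above every WT library, with 408 close to the highest of them. Its log2 fold change of 0.31 (SE 0.21, 95% interval from -0.16 to 0.77) was not called. An exact two-sided permutation test of log2 CPM gave p = 0.095, where the 21 ways to assign the libraries allow no p below 0.048.

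Ezh1, the alternative enzyme, stood in WT at 144 CPM in 398, 112 in 402, 115 in 405, 178 in 1032 and 109 in 1037. The CNS2KO values were 82.7 CPM in 399 and 109.9 in 408. Library 399 was below every WT library, and 408 was within the WT range, next to its lower end. For Ezh1 the log2 fold change came to -0.45 (SE 0.24, 95% interval from -0.97 to 0.07), and the exact permutation test gave p = 0.14. Ezh1 had the smallest unadjusted p of the 8 by edgeR, 0.083, and ranked 721 of 14424 genes. Without CNS2KO 399 its log2 fold change was -0.26, and without CNS2KO 408 it was -0.68.

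Reads of Ezh2 per read of Ezh1 can be compared between libraries without any scaling. The ratio in WT was 0.264 in 398, 0.419 in 402, 0.309 in 405, 0.228 in 1032 and 0.382 in 1037. In CNS2KO it was 0.630 in 399 and 0.438 in 408, both above every WT library, with 408 next to WT 402. On the log2 scale the mean was -1.68 ± 0.36 in WT (SD, n = 5) and -0.93 ± 0.37 in CNS2KO (SD, n = 2), a difference of 0.75. Without CNS2KO 399 the difference was 0.49, and without CNS2KO 408 it was 1.01. The ratio restates the Ezh2 and Ezh1 values above and is not a separate result. Its difference between genotypes was not tested, and the share of other gene pairs without overlap was not taken.

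The libraries also differed in how well genes of long total exon length were represented, called the transcript length measure here. For each library, the median log2 deviation from the WT mean of 2416 genes with at least 6248 exonic bases was set against that of 1072 genes with at most 1988. The difference was 0.30 in WT 398, 0.27 in WT 1032, 0.05 in WT 405, -0.29 in WT 402 and -0.36 in WT 1037. It was -0.47 in CNS2KO 399 and 0.09 in CNS2KO 408, so the CNS2KO libraries lay far apart and 399 lay below every WT library. The level of Ezh1 moved with this measure (Pearson's r = 0.83, exact permutation p = 0.0085, adjusted p = 0.071 over 9 relations; Spearman's rho = 0.86, p = 0.024, adjusted p = 0.11). The Ezh2 to Ezh1 log2 ratio moved against it (r = -0.83, exact permutation p = 0.024, adjusted p = 0.071; rho = -0.71, p = 0.088, adjusted p = 0.26). Without WT 1037 and CNS2KO 399, r was 0.70 for Ezh1 and -0.75 for the ratio, and over the 5 WT libraries alone it was 0.83 and -0.94. With the measure as a covariate in edgeR, the log2 fold change of Ezh1 was -0.30 (SE 0.17) and that of Ezh2 was 0.26 (SE 0.20), each with an adjusted p of 0.999. This measure was chosen after seeing the data and rests on all annotated exons of a gene, not on 1 transcript. By that length Ezh1 (7440 bases) and Ezh2 (6678 bases) are both in its long class. Their principal transcripts, of 4193 and 2787 bases, are shorter than its limit of 6248 bases.

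**Figure D2:**
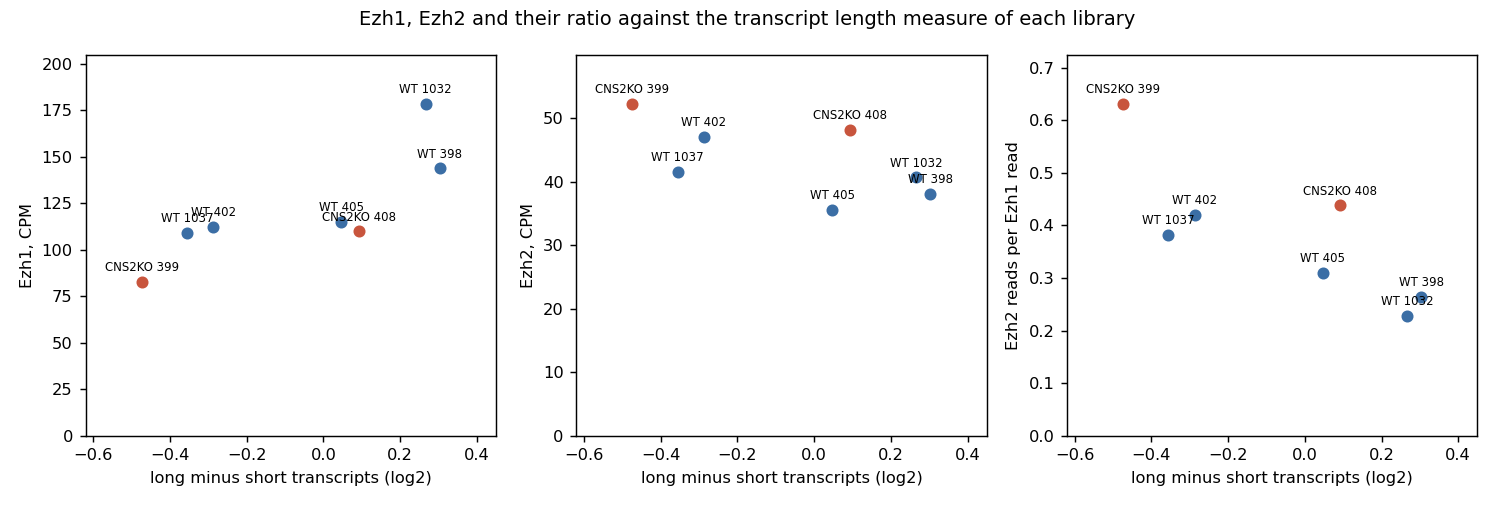
Ezh1 CPM (left), Ezh2 CPM (middle) and Ezh2 reads per Ezh1 read (right) in each library, for WT (blue) and CNS2KO (red). The horizontal axis is the log2 difference between genes of long and short total exon length in that library. Ezh1 is lowest and the ratio is highest in CNS2KO 399, the library with the lowest length measure (-0.47), and CNS2KO 408 has a ratio of 0.438 at a length measure of 0.09.

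Suz12, the subunit that holds the PRC2 core together, stood in WT at 83.5 CPM in 398, 101 in 402, 79.6 in 405, 89.7 in 1032 and 78.9 in 1037. In CNS2KO it stood at 75.6 CPM in 399 and 78.5 in 408, both below every WT library, 408 by a small margin. This gave a log2 fold change of -0.17 (SE 0.19, 95% interval from -0.58 to 0.25), and the exact permutation test gave p = 0.14. Without WT 402, the highest library, the fold change was -0.11. Among the 8 members, Ezh2 (higher) and Suz12 (lower) were the 2 whose groups did not overlap. Over all genes tested, 6.76% had groups that did not overlap: 3.76% had both CNS2KO libraries above every WT library and 3% had both below.

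Eed, the subunit that binds methylated H3K27, stood in WT at 57.1 CPM in 398, 89.9 in 402, 53.4 in 405, 69.2 in 1032 and 80.5 in 1037. The CNS2KO libraries had 77.5 CPM in 399 and 78.8 in 408, within the WT range. Its log2 fold change was 0.16 (SE 0.24, 95% interval from -0.36 to 0.67), and the exact permutation test gave p = 0.57. Left-out WT libraries moved this value, to 0.094 without 398, 0.26 without 402 and 0.075 without 405. Of the 4 PRC2 genes, Ezh2 and Eed had positive and Ezh1 and Suz12 negative fold changes, none of them called.

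Rnf2, the PRC1 ligase gene with more reads than Ring1 in every library, had the lowest coefficient of variation of the 8 genes in WT, 4.68%. It stood at 232 CPM in 398, 249 in 402, 221 in 405, 238 in 1032 and 226 in 1037. In CNS2KO it stood at 242 CPM in 399, inside the WT range, and at 322 CPM in 408, above it. Over all libraries the log2 fold change was 0.27 (SE 0.16, 95% interval from -0.08 to 0.63), and the exact permutation test gave p = 0.095. Without CNS2KO 408 it was 0.05 and without CNS2KO 399 it was 0.47; in these fits the spread came from WT alone, and the remaining CNS2KO library is assumed to vary alike.

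Ring1, the other ligase, had few reads: 56 in WT 398, 26 in WT 402, 47 in WT 405, 79 in WT 1032 and 12 in WT 1037. It had 0 reads in CNS2KO 399, where 3 reads, the limit that a count of 0 allows, are 0.142 CPM, and 17 reads in CNS2KO 408. In CPM, CNS2KO 408 at 0.814 was just above WT 1037 at 0.702, so the groups overlapped. A log2 fold change of -2.54 (SE 1.49, 95% interval from -5.79 to 0.71) was fitted, and the exact permutation test gave p = 0.095. Without CNS2KO 399 the log2 fold change was -1.55, and limma-voom gave -3.92 over all libraries. The coefficient of variation in WT, 57.0%, was the highest of the 8.

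Bmi1 (Pcgf4), the partner that supports the ligases and is known for silencing the Cdkn2a locus, stood in WT at 26.3 CPM in 398, 40.0 in 402, 25.9 in 405, 29.1 in 1032 and 20.1 in 1037. The CNS2KO libraries had 33.5 CPM in 399 and 35.0 in 408, both inside the WT range and above 4 of the 5 WT libraries. Its log2 fold change was 0.28 (SE 0.28, 95% interval from -0.34 to 0.89), and the exact permutation test gave p = 0.29. It was 0.43 without WT 402 and 0.18 without WT 1037.

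Kdm6b, the H3K27 demethylase known to be induced by immune stimuli, stood in WT at 25.3 CPM in 398, 14.8 in 402, 23.6 in 405, 19.2 in 1032 and 22.3 in 1037. In CNS2KO it stood at 16.1 CPM in 399, within the WT range, and at 40.9 CPM in 408, above every other library. For Kdm6b the log2 fold change was 0.44 (SE 0.36, 95% interval from -0.34 to 1.22), and the exact permutation test gave p = 0.48. It was 0.96 without CNS2KO 399 and -0.40 without CNS2KO 408, so the sign rested on 1 library. Of the other genes of the family, Kdm6a, on the X chromosome, had a log2 fold change of 0.20 (SE 0.26), and its Y-linked relative Uty -0.03 (SE 0.29). Kdm6a stood at 58.2 CPM in CNS2KO 399 and 86.0 in CNS2KO 408, against 40.6 to 75.6 CPM in WT. Uty stood at 62.7 and 123 CPM, against 77.2 to 135 CPM in WT. So 408 was the higher of the pair for all 3 demethylase genes. This order was not particular to them: Ezh1, Rnf2 and Ogt were also higher in 408, while Ezh2 and Cbx7 were lower there.

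**Figure D3:**
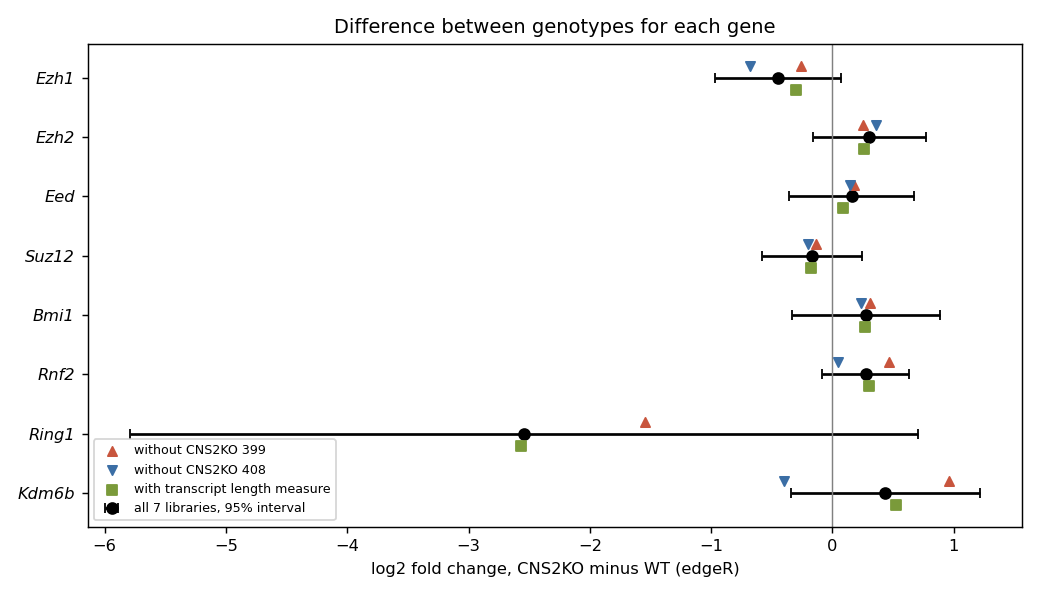
Log2 fold change of each gene, CNS2KO minus WT, by edgeR (black, with 95% intervals), with each CNS2KO library left out in turn (triangles) and with the transcript length measure as a covariate (squares). Every interval spans 0, and Kdm6b changes sign when CNS2KO 408 is left out; Ring1 without CNS2KO 408 is not drawn, since the remaining CNS2KO library has 0 reads.

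Across the 7 libraries the 8 genes did not move as 1 block: of 28 pairs, 14 had a positive and 14 a negative Pearson's r of log2 CPM. The smallest adjusted permutation p of Pearson's r was 0.21. Ezh1 and Ring1 had the same order in all 7 libraries (Spearman's rho of 1, exact permutation p = 0.00040, the smallest possible, adjusted p = 0.011 over 28 pairs). For these pairs only Pearson's r, as a description, had been planned. Spearman's rho and the tests were additions, and each adjustment covers 1 coefficient, not both. Their Pearson's r was 0.88 (exact permutation p = 0.0073, adjusted p = 0.21), 0.78 without the 2 libraries farthest from the median of Ezh1, and 0.83 within WT. Ring1 also moved with the transcript length measure (r = 0.79, exact permutation p = 0.017, adjusted p = 0.071; r = 0.52 without WT 1037 and CNS2KO 399), and the part of that measure in the pair was not tested. Ezh2 and Eed had r = 0.81 (exact permutation p = 0.028, adjusted p = 0.31; rho = 0.68), with r = 0.83 without the 2 libraries farthest from the median of Ezh2 and 0.96 within WT. Ezh2 and Ring1 had r = -0.76 (exact permutation p = 0.033, adjusted p = 0.31; rho = -0.75), which was -0.58 without those 2 and -0.38 within WT. Besides Ezh2 and Eed, the pairs of PRC2 genes were mixed over the 7 libraries. Ezh1 had r = -0.61 with Ezh2, -0.39 with Eed and 0.45 with Suz12. Suz12 had r = -0.02 with Ezh2 and 0.30 with Eed. The transcript length measure had r = -0.61 with Ezh2 and -0.64 with Eed (adjusted permutation p = 0.26 for both).

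**Figure D4:**
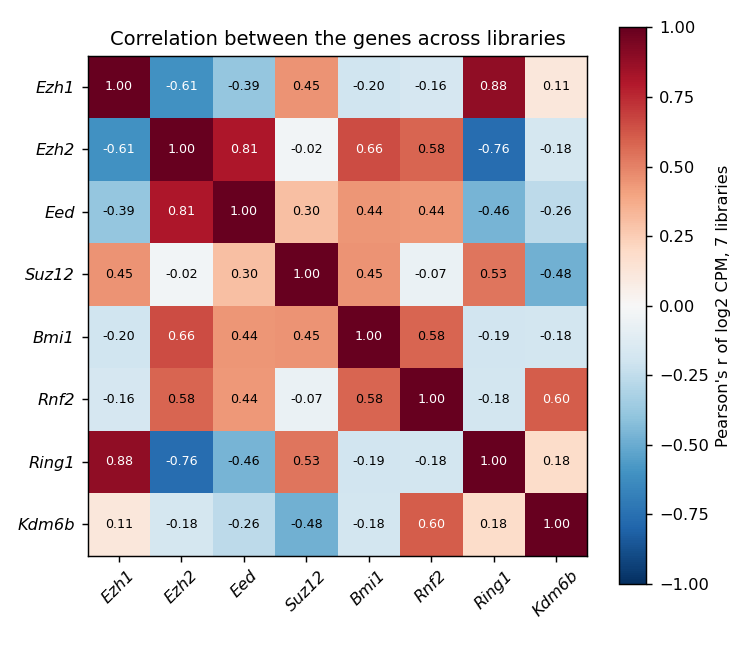
Pearson's r of log2 CPM for each pair of the 8 genes over the 7 libraries, from -1 (blue) to 1 (red). Ezh1 pairs with Ring1 (0.88) and Ezh2 with Eed (0.81), while Ezh2 and Ring1 run opposite (-0.76).

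The other subunits of both complexes were examined as lists. Of 10 other PRC2 genes 8 were tested, 4 positive and 4 negative, with 0 called and a median log2 fold change of -0.01. The histone-binding subunits Rbbp4 (533 ± 95.6 CPM in WT, SD, n = 5; log2 fold change -0.07, SE 0.19) and Rbbp7 (200.3 ± 36.8 CPM; 0.03, SE 0.20) were the most abundant. The accessory subunits Phf19 and Phf1 had the smallest unadjusted p by edgeR, 0.18 and 0.33. Phf19 had 32, 0, 10, 4 and 33 reads in WT 398, 402, 405, 1032 and 1037, and 93 and 43 in CNS2KO 399 and 408. In CPM both CNS2KO libraries lay above every WT library, as in 3.76% of all genes tested. Phf1 had a log2 fold change of -0.45 (SE 0.45).

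Of 24 other PRC1 genes 23 were tested, 10 positive and 13 negative, with 0 called and a median of -0.11. This median was near 0 without WT 398 (-0.0049), -0.062 without WT 405 and -0.19 without CNS2KO 408. The most abundant were Mga, a DNA-binding subunit of a variant complex (221 ± 49.1 CPM in WT; log2 fold change -0.06), and the polyhomeotic gene Phc3 (180.2 ± 41.3 CPM; -0.19). The BCOR relative Bcorl1 had a mean of 11.6 ± 2.24 CPM over WT against 6.89 ± 0.748 over CNS2KO (log2 fold change -0.75, SE 0.39, edgeR unadjusted p = 0.079). It was the 1 gene of the 23 whose groups did not overlap, with CNS2KO lower, as in 3% of all genes tested. Auts2, next by p, had 85 reads in WT 405 and 14 in WT 398, and at most 2 in each other library, so no fold change is given.

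Enzymes that undo or oppose Polycomb marks, and their partners, also had 0 genes called. The list named H2A deubiquitinases, enzymes which remove the PRC1 mark, also held other members of the PR-DUB complex of Bap1, such as Ogt. Of its 10 genes 9 were tested, 3 positive and 6 negative, with a median of -0.19. Bap1, the catalytic subunit, had a mean of 53.9 ± 6.78 CPM over WT against 40.2 ± 2.53 over CNS2KO (log2 fold change -0.42, SE 0.22, edgeR unadjusted p = 0.079). It was the 1 gene of the 9 whose groups did not overlap, with CNS2KO lower, as in 3% of all genes tested. Its partner Asxl2 had -0.31 (SE 0.19), and the abundant Ogt and Mysm1 had -0.22 (SE 0.27) and -0.15 (SE 0.16). Of the 13 genes of the COMPASS complexes, which methylate H3K4 and oppose Polycomb silencing, 4 were positive and 9 negative, with a median of -0.17, which was -0.34 without CNS2KO 408 and -0.081 without CNS2KO 399. The large methyltransferase genes Mll1 (now Kmt2a) and Mll2 (now Kmt2d) stood at -0.17 (SE 0.24) and 0.20 (SE 0.21), and the small shared subunits Dpy30 and Ash2l at 0.41 (SE 0.24) and -0.59 (SE 0.36). Beside these counts, 6835 of all 14424 genes tested were positive and 7589 negative.

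**Figure D5:**
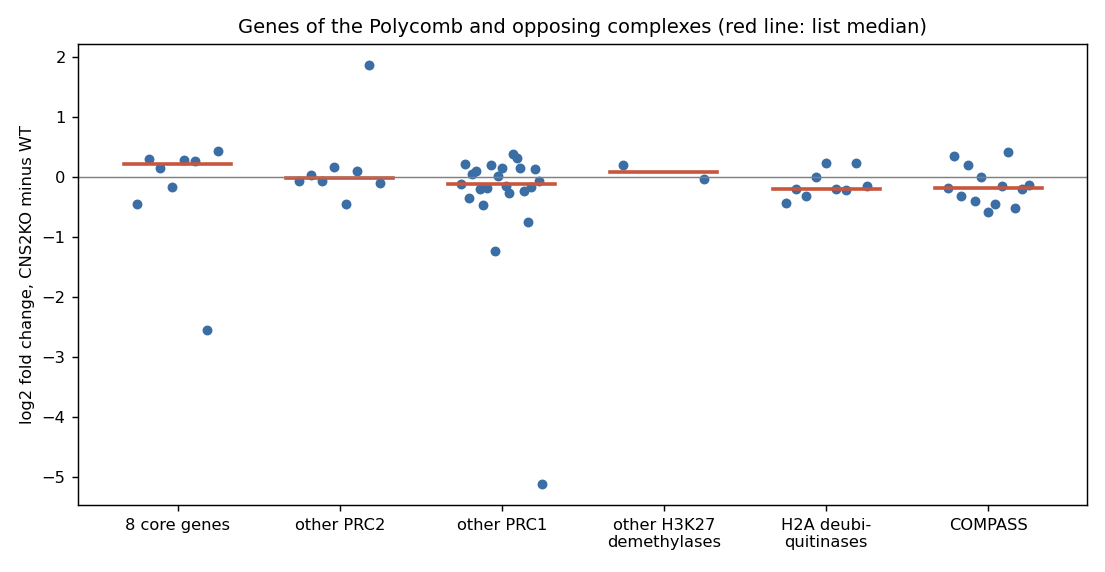
Log2 fold change, CNS2KO minus WT, of each tested gene in the 8 core genes and 5 lists of related complexes, with a red line at each list's median. Medians lie between -0.19 and 0.22; the points below -2 are Ring1 and Auts2, each with almost no reads in at least 1 CNS2KO library.

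Classical Polycomb targets were nearly silent in both genotypes. Of 39 Hox genes in the table, 20 had no reads in any library and 35 had at most 3 reads in every library. Over the whole table, 12129 of 34092 genes had no reads in any library, and 14424 passed the filter. Hoxb4, the Hox gene with the most reads, reached 32 in 1 library and was the 1 Hox gene tested. Of the 45 targets of the list in the table, including the cell cycle inhibitor locus genes Cdkn2a and Cdkn2b, 3 passed the filter and 0 were called. Pax6 was the most abundant of these, with 6.33 ± 3.33 CPM over WT against 7.42 ± 4.47 over CNS2KO (log2 fold change 0.23, SE 0.62). Hoxb4 ranged from 0 to 1.94 CPM in WT (log2 fold change -0.29), and Cdkn1c, an imprinted cell cycle inhibitor gene, -0.20 (SE 1.47).

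The levels of the 8 genes were set against 18 cell cycle genes and 10 immediate early genes, the latter induced within minutes of stimulation or tissue handling. None of the 16 relations passed after adjustment by exact permutation test. Ezh2 and the mean of the cell cycle list had r = -0.31 (exact permutation p = 0.49, adjusted p = 0.90; rho = -0.21), which turned to 0.20 without WT 1037 and CNS2KO 399. Kdm6b had the highest value with that list (r = 0.77, exact permutation p = 0.037, adjusted p = 0.59; rho = 0.68, p = 0.11), and 0.98 without those 2 libraries. With the immediate early list Kdm6b had r = -0.05 (exact permutation p = 0.92, adjusted p = 0.95; rho = -0.11). The cell cycle list itself had 10 positive and 8 negative fold changes with a median log2 fold change of 0.02, and the immediate early list 4 and 6 with a median of -0.11, with 0 called in both. In the former, the mitotic kinase gene Cdk1 had a mean of 6.66 ± 2.09 CPM over WT against 13.3 ± 8.36 over CNS2KO (edgeR unadjusted p = 0.056), and the replication helicase genes Mcm7, Mcm6 and Mcm4 had log2 fold changes of 0.38, -0.10 and -0.02. In the latter, Egr1 had -0.39, Fos -0.52 and Zfp36 -0.23.

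The genes most like Ezh1, Ezh2 and Kdm6b were sought among 7425 others with a mean of at least 10 CPM, by Pearson's r of log2 CPM over the 7 libraries, as a description. Since the genes were picked for this likeness, their high r and shared highest or lowest libraries follow from the choice. They are not further results. Ezh1 was most like Nbas (r = 0.99), Plcb2 (0.99) and Stau1 (0.98). Nbas was highest in WT 1032, at 67.4 CPM, and lowest in CNS2KO 399, at 15.5 CPM, the same extremes as Ezh1. Ezh2 was most like Ndufb3, a subunit of respiratory complex I (r = 0.97), the myosin light chain Myl6 (0.95) and the tetraspanin Cd81 (0.95), each higher in CNS2KO 399 than in every WT library. Kdm6b was most like the RNA demethylase gene Alkbh5 (r = 0.98), the beta-actin gene Actb (0.98) and the histone variant gene H2afy (0.96), and all 3 were highest in CNS2KO 408. Actb stood there at 18300 CPM, against 10390 to 14070 CPM in WT.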

How the data were processed

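The values used are unnormalized read counts by gene symbol, deposited by the authors. Per the labels' protocols, Trizol-extracted RNA went through SMARTer amplification and a Proton library preparation. Per the submitters' processing notes, the build was mm9 and the tools included BWA, STAR and edgeR, with no versions or roles; no counter or annotation is named in the sources used here. From the count table, 5 summary rows and the 2 columns numbered 407 were left out. Every pair of the 7 libraries differed by far more than sampling noise (chi-square per degree of freedom of at least 31.6).

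Genotypes were compared with edgeR 4.0.16 under R 4.3.3 (filterByExpr, TMM scaling, two-sided quasi-likelihood test, Benjamini-Hochberg adjustment over all 14424 genes tested). Each standard error is the absolute log2 fold change divided by the square root of F. Log2 CPM used a prior count of 2. Floors of 3 counts, 0.142 to 0.182 CPM per library, cover counting error only. Counts were simulated for the 5 against 2 comparison over 13879 genes. The test called 40 of 100 genes given a 2-fold and 89 of 100 given a 4-fold change, and 0 where nothing was changed. The changed genes, 200 at once, were drawn above a minimum mean CPM that Ring1 does not reach. Their spread was taken from edgeR's trend over all genes, and fewer changed genes were not simulated. Exon lengths came from GENCODE M21 (GRCm38), which gave a length to 89.6% of tested genes. Overlaps between the members and other annotated genes were taken from the gene coordinates of that release, whose build differs from mm9.

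The genes, lists, tests and alternatives were chosen with earlier results of these data known. Named besides the 8 genes are, per list, genes past the threshold or otherwise the 2 of smallest p and the 2 of highest CPM, and the 3 genes most like Ezh1, Ezh2 and Kdm6b, without clone names; the cell marker lists are given as sums. Alternatives were relative log expression scaling, DESeq2 1.42.0, limma-voom (limma 3.58.1), no filter, a minimum of 10 CPM in at least 2 libraries, leaving out the WT libraries with 4-digit numbers, an FDR of 0.1 and each library left out. A covariate for transcript length was added after seeing the data.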

Additional observations from a re-analysis of the deposited data

How the results depend on the processing

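The count of the 8 genes called stayed at 0 under every alternative run, with each library left out included. Over all genes it was 0 as well, except 8 with no filter on low counts, none of them a member. With 1 library left out at a time, the log2 fold change of Kdm6b ranged from -0.40 (without CNS2KO 408) to 0.96 (without CNS2KO 399), and it was the 1 member whose sign turned. Over the same fits the median of the members ranged from -0.078 to 0.28, that of the other PRC2 subunits from -0.10 to 0.12, of Kdm6a and Uty from -0.37 to 0.42, of the H2A deubiquitinases from -0.35 to -0.051, of the other PRC1 subunits from -0.19 to -0.0049 and of COMPASS from -0.34 to -0.081; each of these extremes but the 0.28 (without WT 402) and the -0.0049 (without WT 398) came from leaving out a CNS2KO library, after which only the WT libraries give the spread. Without the 2 libraries farthest from the list's median, the correlation with the cell cycle list turned to -0.12 for Ezh1, 0.20 for Ezh2 and -0.47 for Ring1, and that with the immediate early list to 0.20 for Bmi1 and 0.012 for Kdm6b; the cause was not tested. Of 234 alternative values, 13 had the opposite sign to the value reported: the 6 above of Kdm6b and the correlations, and 7 medians (4 of the other PRC2 subunits, 2 of Kdm6a and Uty, 1 of the members). No paired analysis was possible because the genotypes share 1 number only, 407, whose columns were not used. On the counts simulated with 2 CNS2KO libraries, most 4-fold changes were called and most 2-fold changes were not. Genes as low as Ring1 were not among those changed, so for Ring1 the reach of the test was not measured.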
